A study of Arabidopsis thaliana with 4 samples.

Results

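The interaction between Dox treatment and leaf position was measured in Arabidopsis thaliana leaves. It was the Dox difference of the treated leaves minus the Dox difference of the untreated leaves. It was computed for every gene from all 12 of the series' 12 libraries, with 3 libraries in each of 4 groups. The labels do not say whether local and systemic libraries came from the same plants, and the fit did not pair them. Dox local leaves had received Dox at 25 um/g, and control local leaves had received water. Dox systemic leaves came from plants whose local leaves had been given Dox, and control systemic leaves from plants whose local leaves had been given water; no treatment of the systemic leaves themselves is given. All plants grew on an agar medium with sucrose, in long days, and no mutant, transgene or genotype other than the species is named. The labels do not spell out Dox, and the sources used here do not give the age of the plants, the hour of harvest or the time from treatment to harvest. Each group was deposited as 1 sample with 3 columns of counts, and the labels do not say whether those columns are separate plants. The p-values below therefore reflect how far these libraries scatter, which could be technical scatter alone.

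The series presents Dox as a mitochondrial stress that acts on treated leaves and, at a distance, on untreated ones. In plants, impaired mitochondria send retrograde signals to the nucleus, where genes for alternative oxidase, alternative NAD(P)H dehydrogenases, small heat shock proteins, transporters and detoxifying enzymes respond. Leaves also exchange mobile signals, such as pipecolic acid derivatives and salicylic acid derivatives in defence, by which a treated leaf can alter gene expression elsewhere in the plant. A positive interaction means that the Dox difference was more positive in local than in systemic leaves, and a negative one that it was more negative there. An interaction of a given size can come from a change at either position or from opposite changes at both. The local and systemic parts are given below for many of the genes and lists. Where they are not, the interaction alone does not say which position changed.

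Libraries held 18981328 to 21380652 counts over 21429 to 22325 detected genes. Transcripts of light-harvesting proteins, which define green leaf tissue, summed to 12600 to 19000 CPM (counts scaled to library size) in Dox local, 15400 to 27800 in control local, 13800 to 24400 in Dox systemic and 17700 to 39200 in control systemic libraries. Of 8 root markers RHD6, EXPA7, MYB36 and IRT1 were at 0 in all groups, and the list summed to 0.154 to 0.514 CPM in Dox local, 0.925 to 1.06 in control local, 0.875 to 3.23 in Dox systemic and 1.29 to 1.84 in control systemic libraries. The sum was lowest in Dox local leaves. Its only member past the filter, CASP2, a gene of the root endodermis, had an interaction of -1.98 (SE 0.73), and the part of root-related transcripts in the results was not tested. Of 8 flower markers 3 passed the filter on low counts; the list summed to 1.8 to 13 CPM in Dox local, 1.34 to 4.56 in control local, 5.12 to 26.2 in Dox systemic and 2.79 to 5.97 in control systemic libraries, AP1, SEP2 and LFY being at or near 0. The part of flower-related transcripts in the results was not tested. Some libraries stood apart from the others of their group. Heat shock transcripts summed to 1350 CPM in Dox local library 1, against 98.6 to 267 CPM in the other 11, and its TMM scaling factor was the lowest, at 0.787, followed by 0.866 in control local library 3. Control systemic library 1 had the highest levels of the defence transcripts FMO1 and AIG1. Values without these 3 libraries are given for several gene lists below.

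No gene passed the test of the interaction. The quasi-likelihood test of edgeR gave an adjusted p under 0.05 to 0 of 19403 genes (0%), the smallest adjusted p being 0.832, and 1008 genes (5.2%) had an unadjusted p under 0.05. If no gene had an interaction, a share of about 0.05 would be expected at that threshold. The limma fit on the same genes also called 0. DESeq2 called 1 gene of 25007 (0.004%), the receptor kinase gene CRK4, as positive. The median standard error of the interaction was 0.39 on the log2 scale, against 0.28 for the local and 0.27 for the systemic Dox difference, since the interaction carries the spread of 4 groups in place of 2. In the same fit 0 genes passed for Dox over control in local leaves (smallest adjusted p 0.902, 915 genes or 4.72% at an unadjusted p under 0.05) and 0 in systemic leaves (0.451, 1670 genes or 8.61%). DESeq2 called 14 genes (0.0632%) in local and 134 (0.695%) in systemic leaves; the difference between these counts is not a test of the interaction.

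Of the 1008 genes at an unadjusted p under 0.05, 617 were positive (3.18% of genes tested) and 391 negative (2.02%). That split depended on the scaling. Genes at an unadjusted p under 0.05 were picked anew under each scaling, so the shares are of different sets of genes. With TMM factors 61.2% of 1008 were positive, and with DESeq2 size factors 56.5% of 982. Upper-quartile factors gave 51.4% of 955, and total counts alone 22.3% of 1006. With total counts alone the median interaction of all genes was -0.24 in place of 0.011. Among the 617 positive genes, 590 were lower with Dox in systemic leaves, 571 were higher with Dox in local leaves and 544 did both. In 396 of the 617 the systemic difference was the larger one. Of the 391 negative genes, 384 were higher with Dox in systemic leaves, 360 lower with Dox in local leaves and 353 both, with the larger difference in systemic leaves in 250. These genes were picked by the interaction itself, so the shares describe them and test nothing.

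Few genes were far apart in opposite directions. Fitted differences of at least 2-fold were found for 57 genes that were higher with Dox in local and lower in systemic leaves (0.294%) and for 46 genes with the opposite pattern (0.237%), while 75 were higher (0.387%) and 111 lower (0.572%) at both positions. Counted by libraries, all 3 Dox libraries lay above all 3 controls in local leaves and below them in systemic leaves for 41 genes (0.211%), and the reverse held for 26 genes (0.134%). Without control local library 3 and Dox local library 1 the number of genes at least 2-fold apart in opposite directions was 275 in place of 103. Over all genes the local and systemic log2 differences, which share no library, had a Pearson correlation of 0.09 and a Spearman correlation of 0.051, and 49.1% of genes had opposite signs; genes are not independent, and no p is given.

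**Figure D1:**
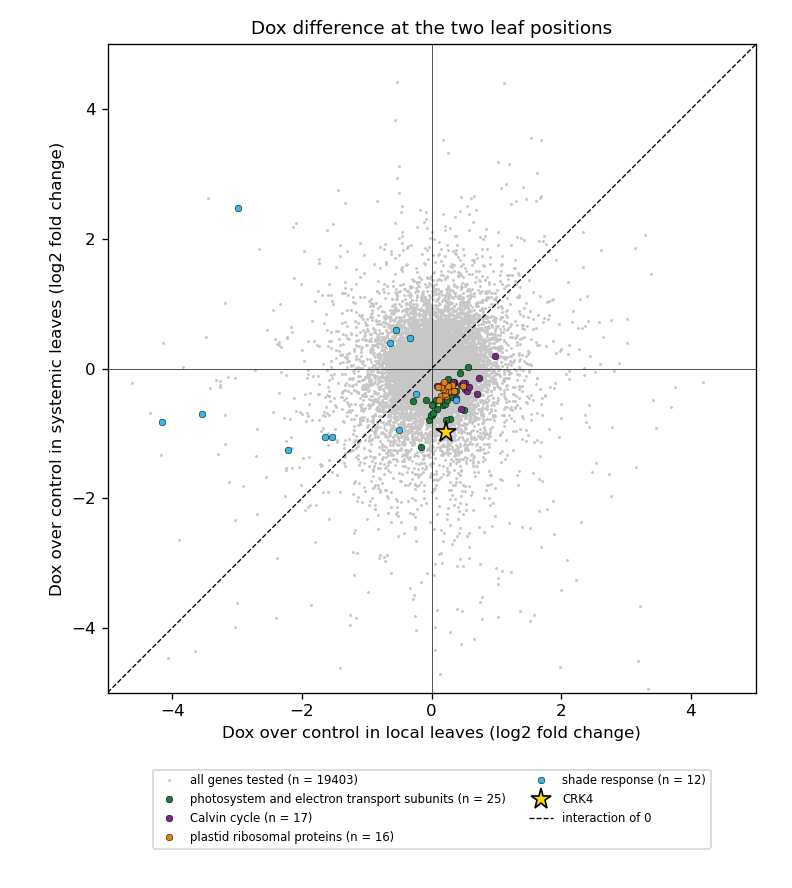
Log2 fold change of Dox over control in local leaves (x axis) and in systemic leaves (y axis) for 19403 genes, with 4 gene lists in colour, CRK4 as a star and the dashed line where the interaction is 0; 14 genes lie outside the axes, which end at 5. Photosystem, Calvin cycle and plastid ribosomal protein genes lie below the dashed line, at positive interactions, and 9 of 12 shade response genes lie above it.

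CRK4 (AT3G45860), a cysteine-rich receptor-like kinase of a family studied in stress and defence signalling, had the smallest unadjusted p of the genes described here. It stood at 245, 258 and 320 CPM in Dox local, 229, 215 and 263 CPM in control local, 83.4, 95.9 and 80.3 CPM in Dox systemic and 168, 159 and 186 CPM in control systemic libraries. Levels overlapped in local leaves, while in systemic leaves every Dox library lay below every control. The local difference was 0.22 (SE 0.16) and the systemic difference -0.98 (SE 0.17) on the log2 scale, 1.97-fold lower with Dox. The interaction was 1.2 (SE 0.23, 95% interval 0.69 to 1.71; edgeR adjusted p = 0.832), and DESeq2 gave 1.19 with an adjusted p = 0.00477. Leaving out single libraries gave 1.08 to 1.29, and it was 0.97 with total counts alone.

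Other positive genes with the smallest p include signalling kinases and plastid proteins. CIPK15 (AT5G01810), a protein kinase regulated by calcineurin B-like calcium sensors, stood at 178, 215 and 203 CPM in Dox local, 88.9, 116 and 174 in control local, 55.5, 98.8 and 98.7 in Dox systemic and 170, 187 and 178 in control systemic libraries. Dox libraries lay above the controls in local and below them in systemic leaves without overlap, and the interaction was 1.73 (SE 0.38, edgeR adjusted p = 0.832). CRCK1 (AT5G58940), a calmodulin-binding receptor-like cytoplasmic kinase, had the same pattern at a lower level, with group means of 13.7 ± 2.76, 8.84 ± 1.71, 6.54 ± 0.837 and 8.95 ± 0.853 CPM (SD, n = 3) in Dox local, control local, Dox systemic and control systemic leaves. Its interaction was 1.08 (SE 0.31). The chloroplast thioredoxin-like protein CDSP32 (AT1G76080) was at 216, 213 and 206 CPM in Dox local, 146, 171 and 166 in control local, 146, 194 and 187 in Dox systemic and 240, 243 and 242 in control systemic libraries. These groups also did not overlap at either position (interaction 0.86, SE 0.22). AT5G52970, annotated as a thylakoid lumen protein (0.74, SE 0.21), and AT3G08920, annotated as a rhodanese-like protein (1.04, SE 0.24), were likewise higher in every Dox library of local leaves and lower in every Dox library of systemic leaves. PnsB5 (AT5G43750), a subunit of the chloroplast NAD(P)H dehydrogenase complex, had an interaction of 1.04 (SE 0.29), with overlap in local leaves.

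Some of these genes owed their interaction almost wholly to 1 position. SDH8 (AT2G46390), a subunit of mitochondrial complex II, stood at 44.2, 28.3 and 55.2 CPM in Dox local and 16, 9.53 and 18.8 CPM in control local libraries. In systemic leaves it was at 38.2, 42.5 and 29.7 CPM with Dox and 41.9, 27.5 and 37.5 CPM in controls. Only control local leaves were low, and their libraries overlapped with none of the other 3 groups. The local difference was 1.53 (SE 0.30), the systemic one 0.048 (SE 0.29) and the interaction 1.48 (SE 0.42, edgeR adjusted p = 0.832). The reverse was found for AT3G06070 (interaction 1.44, SE 0.33; local 0.26, systemic -1.19) and for AT2G31730, annotated as a bHLH protein (1.41, SE 0.34; local 0.22, systemic -1.19), whose Dox libraries overlapped with the controls in local leaves and lay below them in systemic leaves. AT5G24210 (1.66, SE 0.44), annotated as a hydrolase, and AT2G29300 (2.15, SE 0.59), annotated as a dehydrogenase-like protein, had opposite fitted differences at the 2 positions; AT5G24210 overlapped at both and AT2G29300 in local leaves.

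Of the 12 negative genes with the smallest p, 11 had every Dox library above every control in systemic leaves (7.96% of all genes). The 12 were picked by an interaction computed from these same libraries, so the count describes them and tests nothing. WAVH2 (AT5G65683), a RING finger protein, was at 4.4, 5.75 and 3.97 CPM in Dox local, 15.4, 14.5 and 5.64 in control local, 31.3, 15.8 and 15 in Dox systemic and 9.95, 10.5 and 5.84 in control systemic libraries. Local libraries overlapped through control library 3, and Dox systemic libraries lay above their controls (interaction -2.57, SE 0.58, edgeR adjusted p = 0.832). LAX3 (AT1G77690), an auxin influx carrier, stood at 7.91, 5.21 and 7.12 CPM in Dox local, 5.21, 9.2 and 6.76 in control local, 18.9, 7.43 and 13.3 in Dox systemic and 3.49, 2.79 and 4.91 in control systemic libraries. Its local difference was -0.065 (SE 0.35) and its systemic difference 1.83 (SE 0.36), for an interaction of -1.89 (SE 0.51). AT5G66310, annotated as a microtubule motor protein, resembled it, at 0.013 (SE 0.23) in local and 1.27 (SE 0.23) in systemic leaves (interaction -1.25, SE 0.32).

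LTP2 (AT2G38530), a lipid transfer protein of the cuticle, and AT1G13160, annotated as an ARM repeat protein, were the only genes of this group of 12 whose Dox libraries lay below the controls in local and above them in systemic leaves without overlap. LTP2 averaged 14.9 ± 5.69 CPM in Dox local, 21.7 ± 2.53 in control local, 36.2 ± 14 in Dox systemic and 16.6 ± 5.54 in control systemic leaves (SD, n = 3 each; interaction -1.66, SE 0.50). AT1G13160 was at -0.76 (SE 0.23). The bHLH gene bHLH071 (AT5G46690; -2.91, SE 0.89), the peptide transporter PTR1 (AT3G54140; -0.96, SE 0.30), the RNA polymerase subunit ATRPAC42 (AT1G60850; -0.89, SE 0.26), AT3G09760 (-0.85, SE 0.24), AT1G08800 (-1.03, SE 0.30) and AT1G07200 (-1.08, SE 0.31) were each above the controls in every Dox library of systemic leaves and overlapped in local leaves. AT5G28320 (-1.13, SE 0.34) was below the controls in local leaves and overlapped in systemic leaves. All genes of both groups of 12 kept their sign whichever library was left out and under every scaling. They were picked for a small p on all 12 libraries, which favours a kept sign, so this is no separate support.

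**Figure D2:**
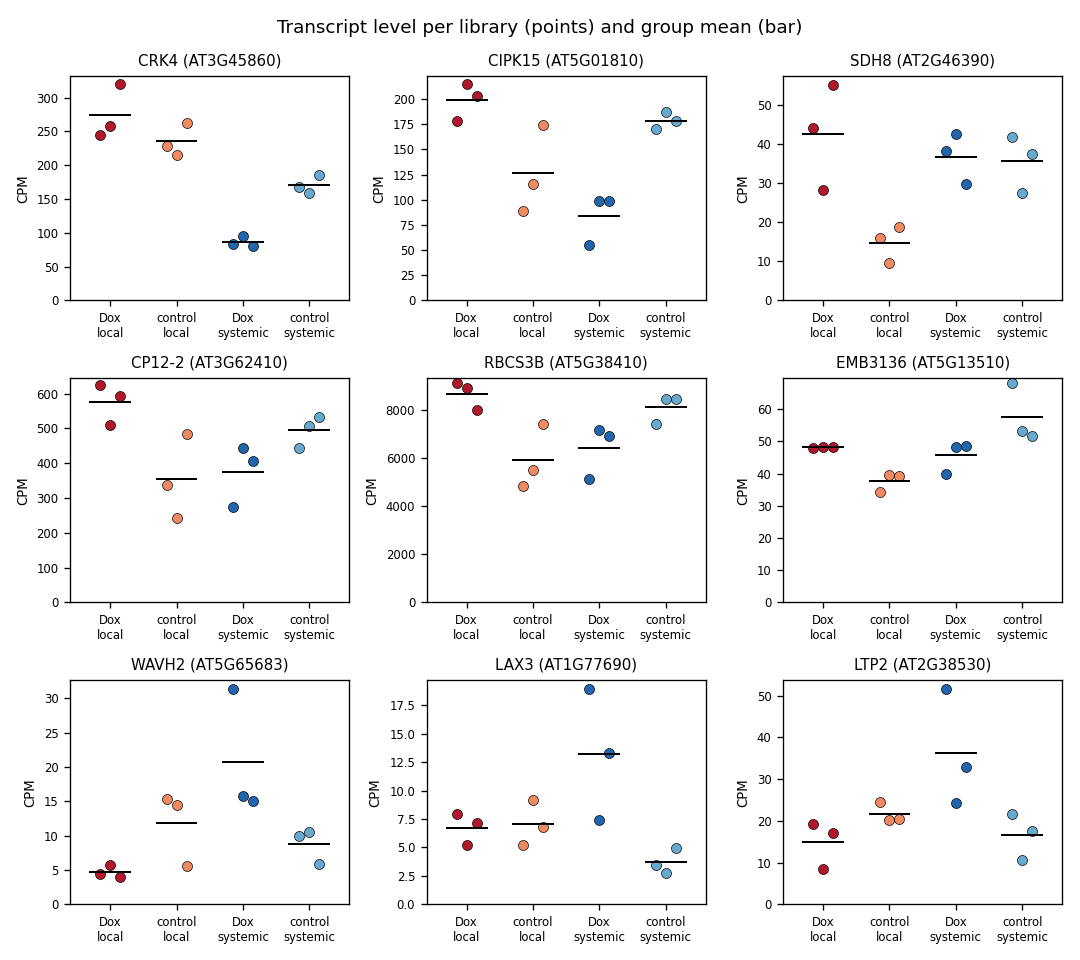
CPM per library (points) and group mean (bar) of 9 genes in Dox local, control local, Dox systemic and control systemic leaves, each axis starting at 0. CRK4, CIPK15, CP12-2, RBCS3B and EMB3136 have positive interactions with Dox systemic below control systemic libraries, SDH8 is low in control local leaves alone, and WAVH2, LAX3 and LTP2 have negative interactions with high Dox systemic libraries.

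Several lists for chloroplast proteins had positive interactions in all their measured members. Nuclear-encoded photosystem and electron transport subunits had a median interaction of 0.72, against 0.011 over all genes, and 25 of 25 were positive, against 51.1% of all genes. None passed the test, and 8 of 25 were positive at an unadjusted p under 0.05, where 3.18% of all genes were. Calvin cycle genes, which encode Rubisco small subunits and the enzymes of carbon fixation, had a median of 0.75 with 17 of 17 positive and 6 at an unadjusted p under 0.05. Plastid ribosomal proteins, which the nucleus encodes for protein synthesis in the chloroplast, had a median of 0.58 with 16 of 16 positive and 10 at an unadjusted p under 0.05. These genes share regulation and libraries, so they are not independent observations, and in whole leaves fewer cells of a type and less RNA per cell cannot be told apart.

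The parts of these values differed between lists. Photosystem subunits were close to control in local leaves (median 0.16) and lower in systemic leaves (-0.54), where all Dox libraries lay below all controls for 18 of 25 genes (8.41% of all genes). Calvin cycle genes were higher in local leaves (0.46, 17 of 17 positive; 8 of 17 without overlap, 4.14% of all genes) and lower in systemic leaves (-0.25, 16 of 17 negative; 7 of 17 without overlap). Plastid ribosomal proteins were at 0.21 in local leaves (16 of 16 positive) and -0.33 in systemic leaves (16 of 16 negative, 13 of them without overlap). The reverse separations, below in local and above in systemic leaves, held for 0 genes of these 3 lists (3.4% and 7.96% of all genes). Both separations at once, above in local and below in systemic leaves, were found for 3 of 17 Calvin cycle and 3 of 16 plastid ribosomal genes, against 0.211% of all genes, and for 0 of 25 photosystem genes. Under total counts alone the interaction medians were 0.43, 0.52 and 0.34 for photosystem, Calvin cycle and plastid ribosomal genes, with 24 of 25, 17 of 17 and 16 of 16 positive and the median of all genes at -0.24.

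Set out by position, control and Dox plants were opposite. In control plants local leaves had lower levels than systemic leaves for 25 of 25 photosystem, 17 of 17 Calvin cycle and 16 of 16 plastid ribosomal genes, with medians of -0.33, -0.34 and -0.51 (all genes 0.006). In Dox plants local leaves had higher levels for 25 of 25, 16 of 17 and 14 of 16, with medians of 0.36, 0.44 and 0.056 (all genes -0.024). The plastid ribosomal list was therefore nearly level between the leaves of Dox plants. Relative to the mean of all 12 libraries, its median was between -0.071 and 0.060 in Dox local, between -0.41 and -0.056 in control local, between -0.26 and 0.068 in Dox systemic and between 0.26 and 0.33 in control systemic libraries. Groups overlapped except that control systemic libraries lay above all others. Without Dox local library 1, control local library 3 and control systemic library 1, the interaction medians were 0.31 for photosystem (21 of 25 positive), 0.88 for Calvin cycle (17 of 17) and 0.63 for plastid ribosomal genes (16 of 16). The local median of photosystem genes was then -0.18.

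**Figure D3:**
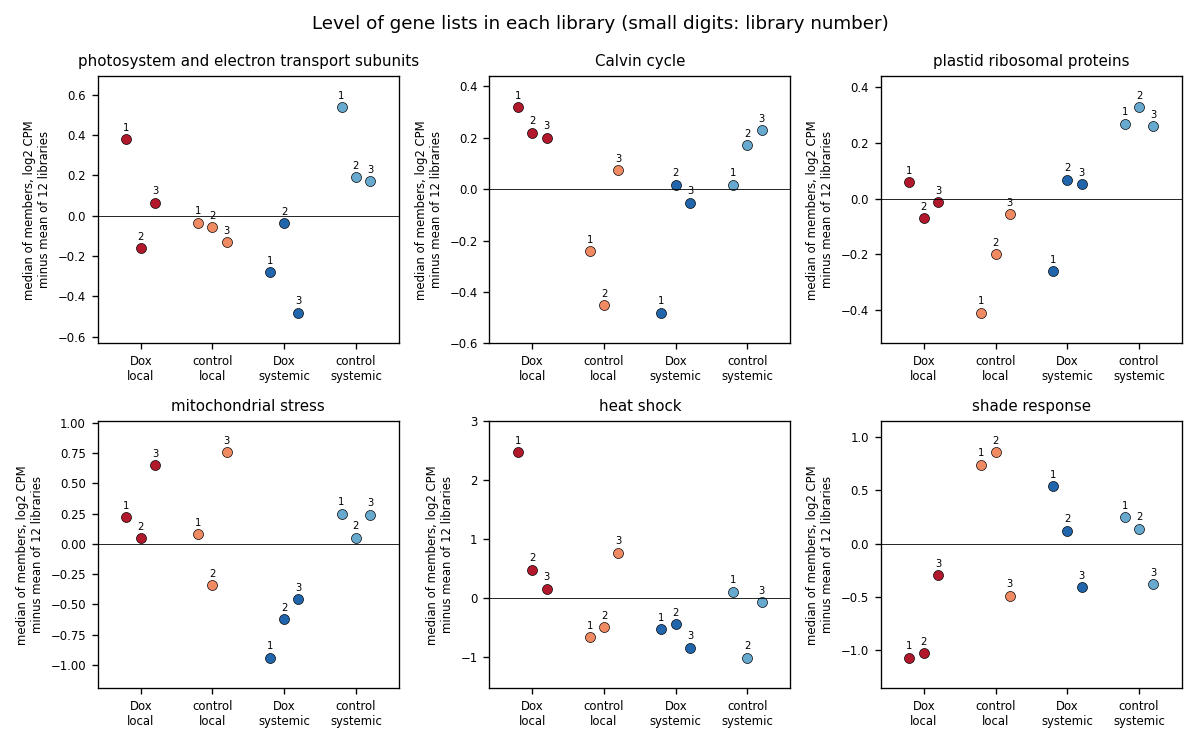
Median level of the members of 6 gene lists in each library (log2 CPM minus the mean over all 12 libraries), for Dox local, control local, Dox systemic and control systemic leaves; digits number the libraries of a group. Control systemic libraries are the highest for plastid ribosomal proteins, and Dox local library 1 stands alone at 2.48 for heat shock.

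Members with the smallest interaction p of these lists are described next. They were picked by the interaction itself, so they need not be typical of the lists and test nothing. CP12-2 (AT3G62410), a small regulator of Calvin cycle enzymes, stood at 626, 511 and 592 CPM in Dox local, 337, 244 and 484 in control local, 274, 443 and 406 in Dox systemic and 445, 506 and 534 in control systemic libraries. Dox and control libraries did not overlap at either position, although the nearest values, 443 and 445 CPM, were almost equal; the interaction was 1.10 (SE 0.37). RBCS3B (AT5G38410), a Rubisco small subunit, was at 9130, 8920 and 8030 CPM in Dox local, 4830, 5510 and 7450 in control local, 5130, 7190 and 6950 in Dox systemic and 7410, 8480 and 8460 in control systemic libraries. Its interaction was 0.89 (SE 0.39), also without overlap; reads may be shared with the near-identical RBCS1B and RBCS2B. HCEF1 (AT3G54050), the chloroplast fructose-bisphosphatase, and GAPB (AT1G42970), a subunit of chloroplast glyceraldehyde-3-phosphate dehydrogenase, were both at 0.84 (SE 0.28 and 0.37).

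Among photosystem genes the leading one was NPQ4 (AT1G44575), which encodes PsbS, the protein needed for fast dissipation of excess light energy. It averaged 1090 ± 237 CPM in Dox local, 770 ± 264 in control local, 620 ± 155 in Dox systemic and 969 ± 167 in control systemic leaves (SD, n = 3 each), for an interaction of 1.14 (SE 0.42). The photosystem I subunit PSAK (AT1G30380) was at 1.06 (SE 0.39), and the ferredoxin-NADP reductases FNR1 and FNR2, the last step of linear electron transport, were both at 0.73 (SE 0.28 and 0.27). For FNR1 Dox libraries lay above the controls in local leaves and overlapped in systemic leaves, and for FNR2 they overlapped in local leaves and lay below in systemic leaves. EMB3136 (AT5G13510), annotated as a ribosomal L10 protein, was at 48.1, 48.3 and 48.3 CPM in Dox local, 34.3, 39.7 and 39.2 in control local, 40, 48.3 and 48.6 in Dox systemic and 68, 53.1 and 51.6 in control systemic libraries. Control local leaves were the lowest group and control systemic leaves the highest (interaction 0.69, SE 0.21). PRPL28, RPL24 and EMB3137 were at 0.76 (SE 0.24), 0.64 (SE 0.23) and 0.64 (SE 0.23).

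Chlorophyll synthesis genes had a median of 0.49 with 14 of 14 positive, of which GUN5 (AT5G13630), the large subunit of magnesium chelatase, was at 1.10 (SE 0.41) and PCB2 (AT5G18660), the divinyl reductase, at 0.75 (SE 0.24). Both were near control in local leaves (0.13 and 0.18) and lower in systemic leaves (-0.96 and -0.58), with no overlap there. With total counts alone 11 of 14 were positive. Light-harvesting proteins, the antenna of the photosystems, were less uniform: 16 of 19 were positive with a median of 0.64, and the list was lower with Dox at both positions (-0.33 in local, -0.89 in systemic leaves). LHCB6 (AT1G15820), a minor antenna protein, stood at 849, 367 and 727 CPM in Dox local, 706, 647 and 604 in control local, 397, 530 and 359 in Dox systemic and 1220, 915 and 851 in control systemic libraries. It overlapped in local leaves and was below the controls in systemic leaves (interaction 1.21, SE 0.42). Lhca6 was also at 1.21 (SE 0.36) and LHCB2.1 at 2.19 (SE 0.93). The median of the antenna list was 0.39 without Dox local library 1, 0.32 without control systemic library 1, and -0.038 with 9 of 19 positive when control local library 3 was left out as well.

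Genes that respond to mitochondrial dysfunction had mostly positive interactions that lay in the systemic leaves. Of 21 measured members of the mitochondrial stress list 19 were positive, with a median of 0.98 (local 0.18, systemic -0.61), and 5 of 21 were positive at an unadjusted p under 0.05 (51.1% and 3.18% of all genes). The alternative oxidase gene AOX1D (AT1G32350) was at 1.84, 0.543 and 2.14 CPM in Dox local, 1.24, 2.64 and 0.237 in control local, 0.135, 0.0935 and 0.0427 in Dox systemic and 9.32, 0.827 and 0.465 in control systemic libraries. It rests on 83, 86, 6 and 207 reads in these groups, and control systemic library 1 holds most of the last. The interaction of 5.32 (SE 1.70) was 2.85 without that library. AOX1A (AT3G22370), the alternative oxidase most used as a reporter of mitochondrial retrograde signalling, was at 87.7, 57.1 and 55 CPM in Dox local, 55.6, 35.5 and 98.7 in control local, 24, 34.9 and 33.4 in Dox systemic and 43.2, 27.2 and 52.9 in control systemic libraries. Its groups overlapped at both positions, and its interaction of 0.49 (SE 0.51, 95% interval -0.62 to 1.61) included 0 in its interval. It was 0.21 without control local library 2, 0.25 without Dox local library 1, 0.27 without control systemic library 3 and 0.97 without control local library 3.

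DTX1 (AT2G04040), a multidrug efflux transporter, had the smallest p of the mitochondrial stress list and rests on no single library. It stood at 0.297, 3.37 and 2.54 CPM in Dox local, 1, 0.283 and 1.66 in control local, 0.18, 0.234 and 0.384 in Dox systemic and 1.87, 3.48 and 1.81 in control systemic libraries. Only Dox systemic leaves lay apart from their control (interaction 4.22, SE 1.14, edgeR adjusted p = 0.832; 3.69 to 4.82 whichever library was left out). The transporter-like AT2G04050 (4.09, SE 1.41) and AT5G51440 (4.43, SE 1.77), annotated as an HSP20-like chaperone, also had Dox systemic below control systemic libraries, and AT5G51440 was at 7.41 without control local library 3. Mitochondrial chaperones and proteases and the nuclear-encoded respiratory chain had medians of 0.065 and 0.063, close to that of all genes and to 0.064 for reference genes. All 3 medians turned negative with total counts alone, at -0.16, -0.20 and -0.20, where all genes were at -0.24. They also crossed 0 when single libraries were left out, with lowest values of -0.071 for chaperones, -0.007 for the respiratory chain and -0.0042 for reference genes. The mitochondrial stress median was 0.65 without Dox local library 3 and otherwise within 1.5 times its value, and 1.1 with 18 of 21 positive without the 3 libraries that stood apart.

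Heat shock genes had the highest list median, 2.26, and it rested on 1 library. Of 17 measured members 15 were positive (51.1% of all genes), 6 of them at an unadjusted p under 0.05 (3.18%), with 1.58 in local and -0.35 in systemic leaves. HSP70 (AT3G12580), a cytosolic chaperone, whose reads may be shared with related copies, was at 342, 18.8 and 33 CPM in Dox local, 4.54, 5.9 and 34.2 in control local, 3.6, 3.55 and 3.5 in Dox systemic and 7.29, 3.79 and 19.6 in control systemic libraries. Dox local library 1 was far above all others, and without it the interaction was 2.33 in place of 4.67 (SE 1.55). HSFA2, a heat shock transcription factor, was at 6.2 (SE 3.06) and 0.96 without that library, MBF1C, a heat stress coactivator, at 3.90 (SE 1.56) and 1.41, and HSP90.1, a chaperone, at 3.33 (SE 1.21) and 1.66. The list median was 0.70 without Dox local library 1 and 0.37 without the 3 libraries that stood apart. HSP17.6II (AT5G12020), a small heat shock protein, was at 5.38 (SE 1.51) on 79, 27, 5 and 65 reads in Dox local, control local, Dox systemic and control systemic leaves.

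Endoplasmic reticulum stress genes, chaperones and foldases of the secretory pathway, had 13 of 13 positive interactions and a median of 1.06, with 0.31 in local and -0.70 in systemic leaves. The binding protein BIP2 (AT5G42020) stood at 366, 80.2 and 398 CPM in Dox local, 113, 110 and 347 in control local, 85.5, 135 and 65.7 in Dox systemic and 126, 168 and 278 in control systemic libraries. Both local groups spread over a wide range and overlapped (interaction 1.56, SE 0.86). The J protein ATERDJ3B was at 1.39 (SE 0.61) and the calreticulin CRT1b at 1.11 (SE 0.53), and 1 of 13 members was positive at an unadjusted p under 0.05 (3.18% of all genes). Leaving out single libraries gave medians of 0.72 to 1.46, and leaving out the 3 that stood apart gave 1.39 with 12 of 13 positive.

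Of the salicylic and pipecolic acid genes, which drive local and systemic defence, 25 of 26 were positive with a median of 1.2, at 0.31 in local and -0.83 in systemic leaves, and 4 of 26 were positive at an unadjusted p under 0.05 (51.1% and 3.18% of all genes). FMO1 (AT1G19250), which makes N-hydroxypipecolic acid, had the largest positive interaction of all genes tested, 8.28 (SE 3.01), on 114, 12, 14 and 387 reads in Dox local, control local, Dox systemic and control systemic leaves. Control systemic library 1 supplied nearly all reads of its group, the other two standing at 0.0435 and 0 CPM, and without it the interaction was 0.43. PBS3, which acts in salicylic acid synthesis, was at 2.73 (SE 1.07) and 1.28 without that library. The transcription factor WRKY70 (AT3G56400) rested less on it, with means of 306 ± 85.1, 314 ± 30.5, 150 ± 11.8 and 254 ± 45.4 CPM (SD, n = 3) in Dox local, control local, Dox systemic and control systemic leaves and an interaction of 0.72 (SE 0.31). PAD4, a lipase-like regulator of defence, was at 1.26 (SE 0.57). The list median was 0.72 without Dox local library 3 and 0.39, with 21 of 26 positive, without control systemic library 1; without the 3 libraries that stood apart it was 0.48, with 19 of 26 positive.

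Camalexin and indole glucosinolate genes had 9 of 11 positive and a median of 0.79, which was 0.29 without control systemic library 3. The camalexin enzymes CYP71A13 (5.11, SE 2.29) and CYP71A12 (3.24, SE 1.44) were at 2.31 and 1.55 without control systemic library 1, and CYP71A13 was at 1.78 without Dox local library 3. Iron deficiency genes had 13 of 15 positive, a median of 1.35, and parts of 0.47 in local and -0.68 in systemic leaves. BHLH100 (AT2G41240), a bHLH factor of the iron deficiency response, was at 18.3, 18.5 and 47.7 CPM in Dox local, 7.4, 22.8 and 24.9 in control local, 7.97, 5.8 and 6.02 in Dox systemic and 5.57, 58.8 and 10.1 in control systemic libraries. One control systemic library was far above the others, and the interaction of 2.54 (SE 1.08) was 0.87 without it; the list median was then 0.42. AT1G47395, another member, was at 24, 42.6 and 51.8 CPM in Dox local, 5.59, 12.4 and 20.3 in control local, 10.4, 6.83 and 12.5 in Dox systemic and 6.09, 27.8 and 13.8 in control systemic libraries (interaction 2.32, SE 0.78; 1.64 without control systemic library 2). Its local groups did not overlap. CGLD27, a chloroplast protein gene of the same list, was at 1.53 (SE 0.68) and 1.01 without control systemic library 2. Without the 3 libraries that stood apart the iron list median was 1.75, with 14 of 15 positive.

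Sugar starvation, clock, dehydration and jasmonate genes were mixed. DIN10 (AT5G20250), a raffinose synthase family gene induced in darkness, stood at 1820, 1550 and 1730 CPM in Dox local, 1900, 1550 and 1710 in control local, 427, 1290 and 590 in Dox systemic and 1970, 2900 and 2250 in control systemic libraries. Local libraries overlapped (-0.015, SE 0.36), and in systemic leaves every Dox library lay below every control (interaction 1.61, SE 0.51). DIN9 was at 1.01 (SE 0.39), while the list median was 0.17 with 9 of 14 positive, and -0.14 with total counts alone. That median turned to -0.023 without Dox local library 1 and to -0.036 without control systemic library 1, and was 0.34 without control systemic library 3 and -0.47, with 3 of 14 positive, without the 3 libraries that stood apart. In the clock list 15 of 19 were positive (median 0.53, 0.088 without Dox local library 3, 0.81 without Dox local library 2 and 0.34 without Dox systemic library 3). AT3G54500 was at 1.08 (SE 0.41), and the pseudo-response regulator PRR7 was lower with Dox in every library at both positions, with an interaction of 1.34 (SE 0.86) that was 0.6 without Dox local library 3. The dehydration genes RD20 (1.95, SE 0.79), KIN2 (2.19, SE 0.91) and RAB18 (1.87, SE 0.81) were positive (KIN2 may share reads with its near-copy KIN1), in a list whose median, 0.37, turned to -0.19 without Dox local library 1. RD20 was at 1.15 without Dox local library 3, and KIN2 and RAB18 were at 1.41 and 1.23 without Dox local library 1. LOX2, a lipoxygenase of jasmonate synthesis, was at 2.13 (SE 0.97) and 1.24 without Dox local library 3, and the jasmonate list median, 0.46, turned to -0.079 without Dox local library 1 and to -0.067 without control systemic library 3.

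Negative interactions were found on the lists of shade, auxin and cell wall growth. Shade response genes had a median of -0.88 with 9 of 12 negative and were lower with Dox mainly in local leaves (-1.08, against -0.59 in systemic leaves). Of 12 members 4 were negative at an unadjusted p under 0.05, where 2.02% of all genes were. YUC9 (AT1G04180), an auxin synthesis enzyme, was at 0.357, 0.597 and 0.305 CPM in Dox local, 6.21, 7.64 and 0.89 in control local, 6.26, 4.58 and 1.88 in Dox systemic and 11.4, 7.97 and 1.29 in control systemic libraries. Dox local libraries lay below every other library (interaction -2.84, SE 1.2), and library 3 was the lowest of each group. The phytochrome-interacting factor PIF3 was at -1.13 (SE 0.49), the shade-induced homeobox gene HB-2 at -0.81 (SE 0.36), and PIL1, a bHLH gene induced by shade, at -5.47 (SE 1.83) on levels under 5 CPM. PIF3 was at -0.72 without control local library 2 and HB-2 at -0.44 without Dox systemic library 1. Leaving out single libraries moved the list median between -1.11 and -0.61, and without the 3 that stood apart it was -1.29 with 1 of 12 positive.

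Auxin response genes had a median of -0.85 with 19 of 22 negative, and 0 at an unadjusted p under 0.05. The value rested on single libraries: it was 0.20 without Dox systemic library 1, -0.15 without control local library 2, -0.55 without control systemic library 3 and -1.29 without control systemic library 1. Without the 3 libraries that stood apart it was -1.47, with 0 of 22 positive. DFL1, an auxin-conjugating enzyme, was at -1.81 (SE 1.03) and -0.47 without Dox systemic library 1, and the repressor SHY2 at -0.85 (SE 0.56) and -0.15. Alpha-expansins, which loosen growing cell walls, were 8 of 10 negative with a median of -0.47 and were higher with Dox at both positions (0.50 in local and 0.55 in systemic leaves). EXP3 (AT2G37640) stood at 16.7, 7.17 and 13.5 CPM in Dox local, 3.49, 11.3 and 8.66 in control local, 51.1, 15.9 and 43.6 in Dox systemic and 6.14, 6.49 and 7.7 in control systemic libraries. Dox systemic libraries lay above their controls and local ones overlapped (interaction -1.77, SE 0.68). EXPA8 was at -2.00 (SE 0.98), -1.13 without Dox systemic library 1, and EXPA6 at -0.45 (SE 0.24). The expansin median was -0.27 without Dox local library 1 and -0.28 without Dox systemic library 1.

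In the cytokinin list 11 of 13 members were higher with Dox at each position, with medians of 0.52 in local and 0.39 in systemic leaves. Of all 19403 genes 10119 were higher with Dox in local and 9682 in systemic leaves. RR16 (AT2G40670), a type A response regulator, was at 5, 21.2 and 12.2 CPM in Dox local, 3.58, 3.63 and 4.87 in control local, 45.5, 32.2 and 56.4 in Dox systemic and 3.38, 10.4 and 7.86 in control systemic libraries. Dox libraries lay above controls at both positions, and the Dox systemic group was the highest (local 1.67, SE 0.50; systemic 2.63, SE 0.50; interaction -0.96, SE 0.68, 95% interval -2.46 to 0.55). The interaction was -0.57 without Dox local library 1 and -1.53 without Dox local library 2. CKX5, a cytokinin-degrading oxidase, was at -0.96 (SE 0.41) and CRF5, a cytokinin response factor, at -1.79 (SE 0.72). Both went against the list in local leaves, where CKX5 was at -1.67 (SE 0.29) and CRF5 at -1.42 (SE 0.52). In systemic leaves CKX5 was lower with Dox as well (-0.71, SE 0.29) and CRF5 was at 0.37 (SE 0.50). The list median was 0.023, and leaving out single libraries moved it from -0.56 to 0.19.

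Organelle-encoded transcripts, which are few in mRNA-selected libraries, had positive interactions as well. Plastid-encoded genes were 66 of 74 positive with a median of 0.63 (local 0.23, systemic -0.34), which was 0.35 without control systemic library 1. Of these 74 genes 7 were positive at an unadjusted p under 0.05 (3.18% of all genes). Mitochondrial-encoded genes were 56 of 63 positive with a median of 0.56, but 0 of 63 had an unadjusted p under 0.05 in either direction (5.2% of all genes). Their medians for Dox over control were -0.45 in local and -1.02 in systemic leaves. They took 0.0332% to 0.0552% of counts in Dox local, 0.0357% to 0.0972% in control local, 0.0168% to 0.0286% in Dox systemic and 0.0271% to 0.0468% in control systemic libraries. The highest share was that of control local library 3, without which the local median turned to 0.22 and the interaction median was 1.36; leaving out the others in turn gave 0.33 (control local 1), 0.29 (control local 2), 0.37 (Dox systemic 1), 0.86 (Dox systemic 2) and 0.85 (control systemic 2), to name those that moved it by over 1.5 times.

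**Figure D4:**
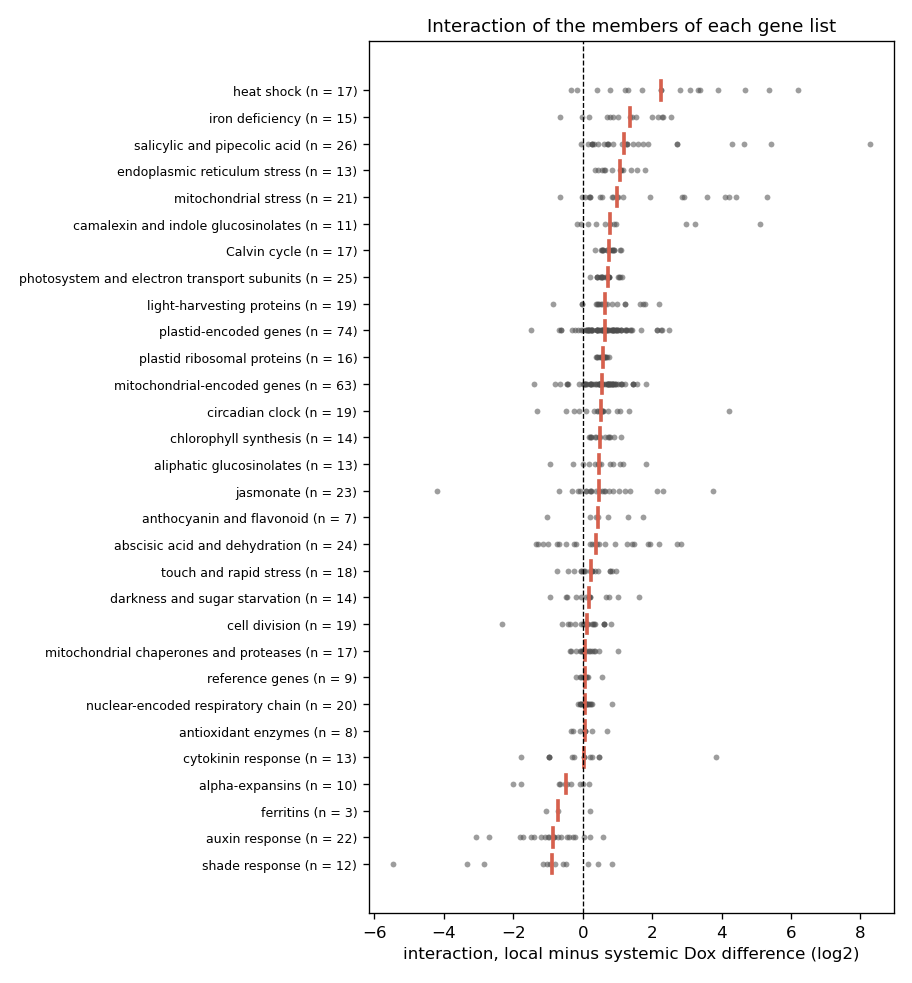
Interaction (log2, local minus systemic Dox difference) of each measured member (points) of 30 gene lists, with the list median (bar) and the median of all genes (dashed line, 0.011). Photosystem, Calvin cycle, plastid ribosomal, chlorophyll synthesis and endoplasmic reticulum stress genes lie wholly to the right of 0, and heat shock and salicylic acid genes spread widely.

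Of the 8 genes with the largest interactions at 10 CPM or more in a group, all but 1 moved by over 1.5 times when a single library was left out. ARD3, which encodes a methionine salvage dioxygenase, stood at 7.7 (SE 2.87) and 0.61 without control systemic library 1, where it stood at 30.1 CPM, against 0.131 and 0 in the others of its group. AIG1, an immune-associated GTPase gene, was at 5.42 (SE 2.22) and 0.82 without that library. HSFA2 is described above. CSLA01 (AT4G16590), a cellulose synthase-like gene, was the exception, at 5.49 (SE 1.56) and 3.88 to 6.76 whichever library was left out. Its levels were uneven too, at 7.49, 2.39 and 20.9 CPM in Dox local and 0.478, 1.32 and 4.81 in control local libraries. In control systemic libraries it stood at 0.677, 0.653 and 4.86 CPM, and Dox systemic leaves held 14 reads in all. On the negative side the sulfotransferase gene ST2A was at -4.20 (SE 2.00), AT1G03010 at -3.75 (SE 1.32), the brassinosteroid oxidase gene BR6OX2 at -3.53 (SE 1.42) and AT5G50335 at -3.44 (SE 1.6). ST2A and BR6OX2 were at -2.26 and -1.97 without Dox systemic library 1, and AT1G03010 and AT5G50335 at -1.17 and -0.23 without control local library 2.

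**Figure D5:**
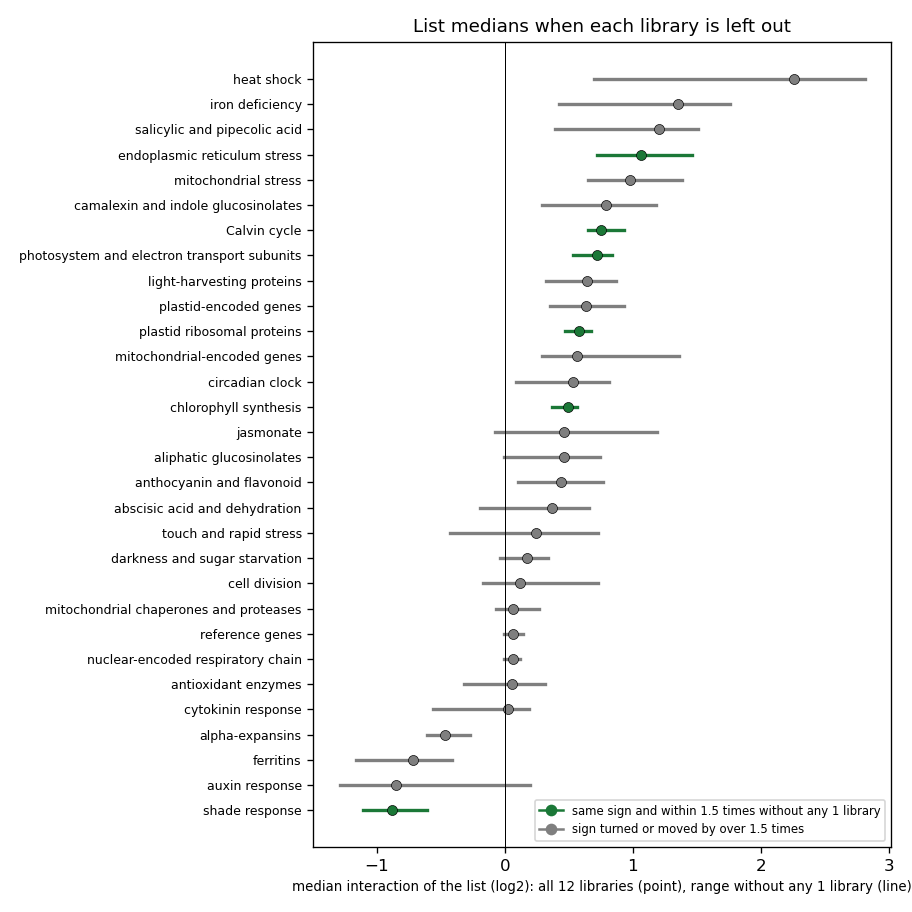
Median interaction (log2) of 30 gene lists over all 12 libraries (points) and its range when each library is left out in turn (lines); green marks lists that kept their sign and stayed within 1.5 times. Endoplasmic reticulum stress, Calvin cycle, photosystem, plastid ribosomal, chlorophyll synthesis and shade response lists did, and the other 24 did not.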

How the data were processed

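Leaf mRNA was sequenced from 4 groups of 3 libraries. Read counts per gene were made with Trimmomatic 0.39, FastQC 0.11.9, HISAT2 and featureCounts 1.6.3 per the submitters' processing notes, and raw counts were deposited by the authors; the sources used here do not give strand, genome build or annotation. Mapping and counting settings bear on near-identical copies, antisense and overlapping genes, whose counts are uncertain.

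All 32982 genes and all 12 libraries entered one edgeR 4.0.16 fit (R 4.3.3): filterByExpr with a minimum count of 10 (19403 genes kept), TMM factors, 4 group means, quasi-likelihood test and Benjamini-Hochberg adjustment, with 0.05 as threshold. The contrast was Dox local minus control local, minus the same in systemic leaves. DESeq2 1.42.0 (adjusted p left as NA where it gave none), limma 3.58.1, other scalings and filters, each library left out and replicate blocks were alternatives; leaving out 2 or 3 libraries together was chosen after seeing the data. The scripts were tested on simulated data. Printed CPM per library use TMM-scaled library sizes, and summed list levels plain totals. Errors are SE for log2 values and SD for CPM.

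The members and gene lists were chosen with earlier results of these data known. The naming rule took the 12 smallest p and 4 largest log2 differences in each direction at 10 CPM or more in a group, 4 genes per list and any DESeq2 call, 162 genes in all; 101 of them, picked after their values were seen, were kept for the text. Libraries of a group differed by more than sampling noise, with a chi-square per degree of freedom of 8.75 to 18.7. No sequences or coordinates are given.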

Additional observations from a re-analysis of the deposited data

Results flagged for a closer look

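Interactions at the 2 leaf positions stood out in 11 of the genes described. CRK4, at 1.2, was the only gene whose interaction passed a test, that of DESeq2, and it did not pass in edgeR. In the other 10 genes the 3 Dox libraries lay wholly on one side of the 3 controls in local leaves and wholly on the other side in systemic leaves, which was found for 0.211% of all genes with local above and 0.134% with local below. These 10 had been named for a small interaction p, in their direction or in their list, and kept after their values were seen. Such a choice favours separated libraries, so setting them beside those shares tests nothing. The 8 with Dox above control in local leaves were CIPK15 (1.73), CP12-2 (1.1), CRCK1 (1.08), AT3G08920 (1.04), RBCS3B (0.89), CDSP32 (0.86), AT5G52970 (0.74) and EMB3136 (0.69). The 2 with Dox below control there were LTP2 (-1.66) and AT1G13160 (-0.76). Some of these separations were narrow, as for LTP2 and AT1G13160 in local leaves and CP12-2 in systemic leaves. The difference between positions was tested for all 10 with edgeR and passed in none. Groups of 3 libraries are too small for a test of single outlying libraries.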

How the results depend on the processing

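The interaction test passed 0 genes under every edgeR and limma setting tried, and 1 with DESeq2. For Dox in systemic leaves edgeR passed 0 genes with all libraries and 0 to 1 with single libraries left out (1 without Dox local library 2), and in local leaves 0 in each case. DESeq2, run on all libraries only, passed 14 genes in local and 134 in systemic leaves. The number of genes at an unadjusted p under 0.05, 1008 with all libraries, was 1643 without control local library 3 and Dox local library 1, 2023 without control systemic library 1 as well, and 1905 with limma sample quality weights. Leaving out single libraries gave 440 (without Dox systemic library 1) to 2512 (without control local library 3). Genes at least 2-fold apart in opposite directions, 103 in all, numbered 769 with no filter on low counts, 46 with a stricter one, 275 and 362 without the 2 or 3 libraries named above, and 102 to 280 when single libraries were left out. Where settings changed a value, the cause was not tested.

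FMO1 turned to -0.13 without the 3 libraries, and the flower marker SEP1 ranged from -0.37 to 2.16 when single libraries were left out. Of 162 named genes 12 changed sign somewhere. Of the list medians, 49 values in 21 lists moved by more than the spread and 742 did not. With total counts alone the medians of touch, antioxidant and cell division genes turned negative, at -0.049, -0.26 and -0.18. Single libraries also turned them: the lowest medians were -0.43 without control systemic library 3 for touch, -0.32 without control systemic library 1 for antioxidant and -0.17 without control systemic library 3 for cell division genes. In their deviations from group means, same-numbered local and systemic libraries correlated at 0.29, 0.4 and 0.7 in control plants, each library best with its own number (different numbers -0.53 to 0.22), and at -0.1, -0.01 and 0 in Dox plants. Deviations within a group of 3 libraries sum to 0, so a positive same-number value itself pulls the different-number values down. The different-number values are therefore no separate evidence. By the same-number values, local and systemic leaves went together in control plants and not in Dox plants, which was not tested. Across treatments, library 3 of Dox systemic leaves also correlated with library 3 of control local (0.43) and control systemic leaves (0.46). Library 3 of Dox local leaves was at 0.04 and 0.01 with the same libraries. Over all group pairs the same-number range was -0.29 to 0.7. With a replicate block by number 0 genes passed and 1455 had an unadjusted p under 0.05, and with a block by number within treatment 0 and 1498.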
